A study of Homo sapiens with 6 samples.

Results

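NRF2, KEAP1 and 7 antioxidant target genes of NRF2 were followed in REH cells after treatment with the CDK9 inhibitor SNS-032. The 9 genes were chosen by symbol from the 18216 genes of the expression table, and all 9 were found: NFE2L2, which encodes NRF2, KEAP1, HMOX1, NQO1, GCLM, GCLC, SRXN1, TXNRD1 and SLC7A11. REH is an established line of human B-cell acute lymphocytic leukemia. Cells were treated for 24 h with 200 nM SNS-032 or with DMSO, its solvent, and 3 RNA libraries were sequenced from each group. The 2 groups therefore share the line, the time and the solvent and differ in the inhibitor. Every value comes from 1 cell line at 1 dose and 1 time, and the labels do not say whether the 3 libraries of a group came from separate cultures, so the p-values measure only the spread between these libraries.

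NRF2 is a transcription factor that drives genes of glutathione and thioredoxin metabolism, heme breakdown and quinone detoxification. KEAP1 is the adaptor that brings NRF2 to the CUL3-RBX1 ubiquitin ligase, so NRF2 protein is short-lived until oxidants or electrophiles modify KEAP1. Stabilized NRF2 pairs with a small MAF protein and binds the antioxidant response element in front of its targets, where BACH1 competes with it. NRF2 activity is set mainly at the level of the protein, which RNA does not show. In leukemia cells, this pathway is best known for buffering reactive oxygen species.

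The values are FPKM, fragments scaled to transcript length and to the mapped fragments of the library, so levels of different genes can be compared per length. They are relative to the RNA of their library, so higher and lower do not give a change in amount per cell. A log2 fold change sets SNS-032 against DMSO after 1 FPKM was added to each value, and is therefore too small for genes of low level, while a plain fold is the ratio of the mean FPKM. The 12239 genes that averaged 1 FPKM or more with DMSO or with SNS-032 were tested with limma, and a gene was called higher or lower if its adjusted p was below 0.05. The FPKM of a library summed to 457826.4 to 464307.5 in the DMSO group and to 470094.5 to 491886.5 in the SNS-032 group. Depth is unknown, since FPKM do not keep it, and counting error enters the intervals only through the spread between libraries. Of the 12 markers of precursor B cells, 11 were at 1 FPKM or more on average in each group, MME being the exception. Their summed level was 1952.5 to 2100.6 FPKM with DMSO and 1172.7 to 1314.4 FPKM with SNS-032. In bulk RNA, fewer cells of a type and less RNA per cell cannot be told apart. Of 5 markers of T cells, 4 are in the table. They summed to 0.35 to 0.42 FPKM with DMSO and to 2.43 to 4.35 FPKM with SNS-032. Most of that rise was CD3G, at 0.18 to 0.32 FPKM with DMSO and 2.02 to 3.85 FPKM with SNS-032. CD5 reached at most 0.5 FPKM, and CD3D and CD3E stayed at or below 0.09 FPKM. The 3 of 7 markers of erythroid cells and megakaryocytes in the table summed to at most 0.24 FPKM in any library. The 3 of 4 markers of cells outside the blood summed to at most 0.59 FPKM in any library.

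After SNS-032, the sensor and its transcription factor moved in opposite directions, and the targets did not move as a group. NFE2L2 was 2.18-fold higher and KEAP1 was 4.42-fold lower. HMOX1, NQO1, SLC7A11 and GCLM were higher, GCLC and TXNRD1 were lower, and SRXN1 did not pass the test. In all, 5 of the 9 genes were called higher and 3 lower with limma, and the libraries of the 2 groups did not overlap for 8 of the 9. Of all genes tested, 89.2% were called in either direction, 39.9% as higher and 49.3% as lower, and 89.7% had no overlap between the groups. Of all calls, 44.7% were higher, and 56.5% were with the libraries centred on a common median. That 8 of the 9 were called is thus close to the background, and the direction and size of each change carry the description. A stricter call asked for an adjusted p below 0.001 together with a log2 fold change of 2 or more in size. KEAP1 met it as lower, as did 2.43% of all genes tested. It did so narrowly, with a log2 fold change of −2.03. That value was −1.73 with the libraries centred on a common median and −1.98 without SNS-032 replicate 1, short of the cut. HMOX1 met the stricter call as higher, beside 3.52% of all genes tested. HMOX1 entered the test through the SNS-032 libraries alone and so had to differ, and nothing is read from its call. In both directions, 5.96% of all genes tested met the stricter call.

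**Figure D1:**
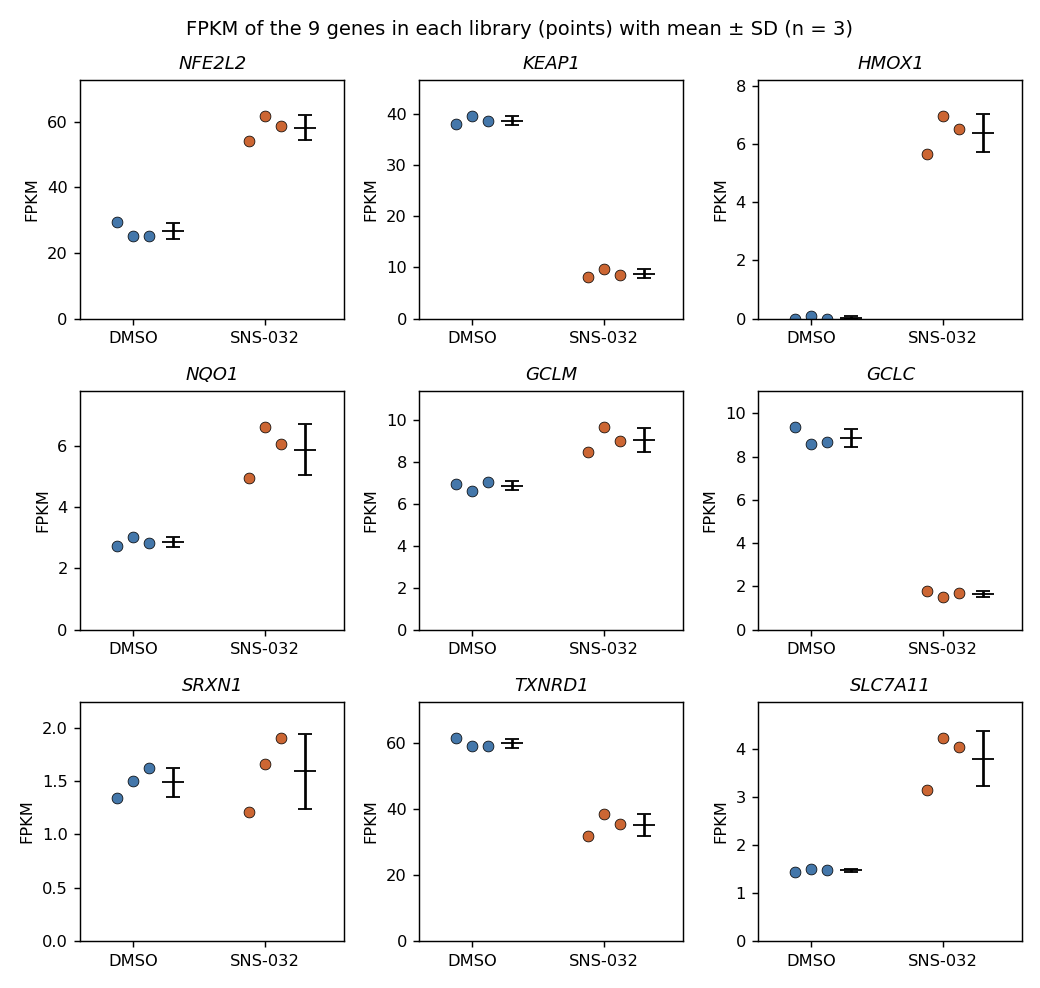
FPKM (vertical axes, each from 0) of the 9 genes in the 3 DMSO libraries (blue) and the 3 SNS-032 libraries (orange), with the mean and SD beside the points. The groups overlap for SRXN1 alone, and KEAP1 and GCLC fall while NFE2L2, HMOX1, NQO1, GCLM and SLC7A11 rise.

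NFE2L2 lies on the minus strand of chromosome 2 of GRCh38 from 177227595 to 177392697, with 15 merged exons in GENCODE. Its level was 29.44, 25.21 and 25.23 FPKM in the DMSO libraries and 54.17, 61.68 and 58.57 FPKM in the SNS-032 libraries. Every SNS-032 library was above every DMSO library, and DMSO replicate 1 stood above the other DMSO libraries. The means were 26.6 ± 2.44 and 58.1 ± 3.77 FPKM (SD over 3 libraries a group), a log2 fold change of 1.10 (95% interval 0.95 to 1.25, adjusted p = 1.28e-08 from limma). Of all genes tested, 14.2% had a log2 fold change at least as high. The gene span overlaps that of AGPS on the other strand, an ether lipid synthesis gene that was at 14.42 to 15.54 FPKM with DMSO and 11.64 to 13.09 FPKM with SNS-032. The sources used here do not say whether reads were counted by strand, so reads of overlapping transcripts cannot be told apart.

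KEAP1, on the minus strand of chromosome 19 of GRCh38 from 10486120 to 10503741 with 10 merged exons, fell in every SNS-032 library. Its level was 37.91, 39.51 and 38.54 FPKM with DMSO and 8.09, 9.72 and 8.43 FPKM with SNS-032. The libraries within a group lay close together and the groups were far apart. The means were 38.7 ± 0.806 and 8.75 ± 0.86 FPKM (SD over 3 libraries a group), and the log2 fold change was −2.03 (95% interval −2.17 to −1.88, adjusted p = 4.52e-11 from limma). Only 2.26% of all genes tested had a log2 fold change as low or lower.

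The ratio of NFE2L2 to KEAP1 does not depend on how a library is scaled. NFE2L2 stood at 0.777, 0.638 and 0.655 of the KEAP1 level in the DMSO libraries and at 6.7, 6.35 and 6.95 times the KEAP1 level in the SNS-032 libraries. KEAP1 RNA was thus the more abundant in each DMSO library and NFE2L2 RNA in each SNS-032 library. The log2 ratio averaged −0.54 ± 0.154 in the DMSO group and 2.74 ± 0.066 in the SNS-032 group (SD over 3 libraries a group), a 9.69-fold difference. The exact two-sided permutation test gave p = 0.1, the smallest that 3 against 3 libraries allow.

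**Figure D2:**
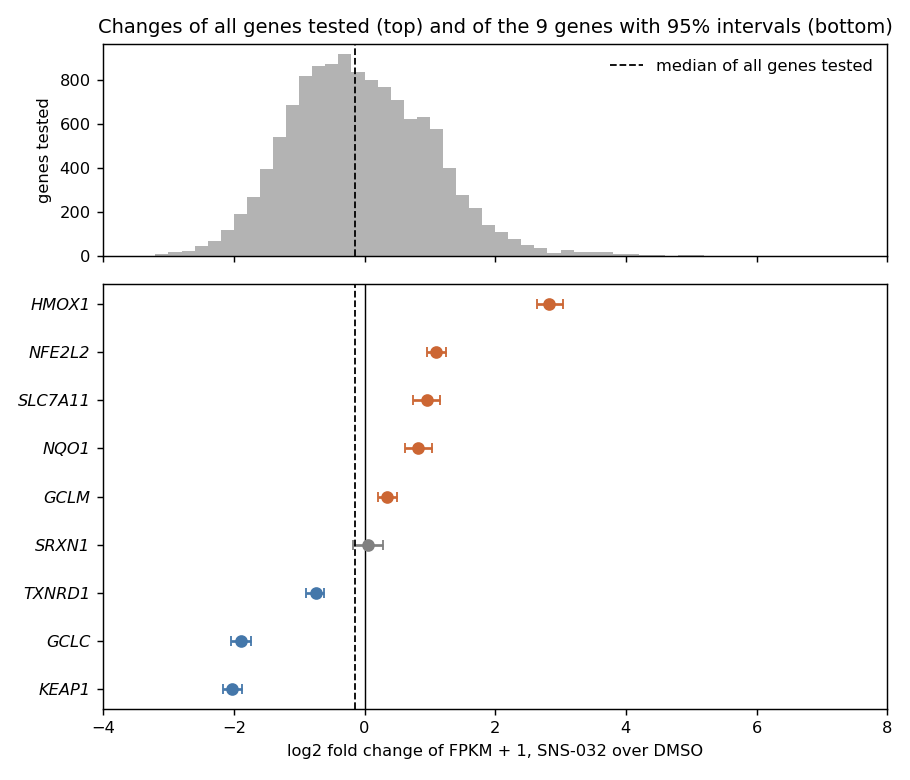
Top: histogram of the log2 fold changes (horizontal axis, SNS-032 over DMSO) of the 12239 genes tested, with their median of −0.14 as a dashed line. Bottom: log2 fold changes of the 9 genes with 95% intervals, colored by call (orange higher, blue lower, grey not called), from −2.03 for KEAP1 to 2.83 for HMOX1.

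HMOX1 encodes heme oxygenase 1, which opens the heme ring to biliverdin, iron and carbon monoxide, and is the target that BACH1 is best known to repress. The gene lies on the plus strand of chromosome 22 of GRCh38 from 35380361 to 35394214. It was listed at 0, 0.1 and 0 FPKM in the DMSO libraries and was at 5.66, 6.95 and 6.51 FPKM with SNS-032. HMOX1 was thus at or near 0 in every DMSO library and above 5 FPKM in every SNS-032 library. No fold is given, because 2 DMSO libraries are listed at 0. The log2 fold change was 2.83 and became 5.68 when 0.1 FPKM was added in place of 1 FPKM. HMOX1 entered the test through the SNS-032 libraries alone and so had to differ, and its p-value is not given. HMOX1 was the only one of the 9 genes with a mean under 1 FPKM in the DMSO group. Of all genes tested, 1.23% had a log2 fold change at least as high. Macrophages are a known source of HMOX1. Of 6 myeloid markers, 5 are in the table, and their summed level was 8.01 to 8.52 FPKM with DMSO and 18.54 to 21.35 FPKM with SNS-032. LYZ went from 2.96 to 3.26 FPKM with DMSO to 15.71 to 17.69 FPKM with SNS-032, and CD14 from at most 0.14 FPKM to between 1.57 and 2.98 FPKM. CSF1R fell from between 4.65 and 5.2 FPKM to between 1.02 and 1.08 FPKM, and MPO and ELANE stayed at or below 0.17 FPKM in all libraries. Their part in the HMOX1 values was not tested.

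NQO1 encodes a quinone reductase that spares the cell a radical step. It lies on the minus strand of chromosome 16 of GRCh38 from 69706996 to 69726951. NQO1 was at 2.72, 3.03 and 2.84 FPKM with DMSO and at 4.96, 6.6 and 6.06 FPKM with SNS-032. Every SNS-032 library was higher, and replicate 1 was the lowest of them. The rise was 2.05-fold, with a log2 fold change of 0.82 (95% interval 0.62 to 1.03, adjusted p = 3.01e-06 from limma). NQO2, its paralog, fell 6.25-fold, from 7.56 ± 0.883 to 1.21 ± 0.361 FPKM (SD over 3 libraries a group).

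GCLC and GCLM encode the catalytic and the modifier subunit of glutamate-cysteine ligase, the first enzyme of glutathione synthesis, and moved in opposite directions. GCLC lies on the minus strand of chromosome 6 of GRCh38 from 53497341 to 53616970, and GCLM on the minus strand of chromosome 1 from 93885205 to 93909456. GCLC was at 9.35, 8.58 and 8.65 FPKM with DMSO and at 1.79, 1.52 and 1.7 FPKM with SNS-032. It was 5.31-fold lower, with a log2 fold change of −1.89 (95% interval −2.04 to −1.73, adjusted p = 1.98e-10 from limma), and 3.32% of all genes tested had a log2 fold change as low or lower. GCLM was at 6.92, 6.6 and 7.01 FPKM with DMSO and at 8.45, 9.63 and 8.99 FPKM with SNS-032. Neither subunit had any overlap between the groups. GCLM was 1.32-fold higher, with a log2 fold change of 0.35 (95% interval 0.21 to 0.50, adjusted p = 0.000288 from limma). Within a library, GCLC stood at 1.35, 1.3 and 1.23 times the GCLM level with DMSO and at 0.212, 0.158 and 0.189 of it with SNS-032. RNA of the catalytic subunit was the more abundant in each DMSO library and RNA of the modifier in each SNS-032 library. The log2 ratio differed by −2.81, or 7-fold, with p = 0.1 in the exact two-sided permutation test, the smallest it can give here.

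SLC7A11 encodes the light chain of the cystine/glutamate exchanger, which brings in the cystine for glutathione, and SLC3A2 encodes the heavy chain that carries it to the membrane. SLC7A11 lies on the minus strand of chromosome 4 of GRCh38 from 138164097 to 138242349. It was at 1.45, 1.51 and 1.48 FPKM with DMSO and at 3.15, 4.23 and 4.05 FPKM with SNS-032. All SNS-032 libraries were higher, 2.57-fold on average, with a log2 fold change of 0.95 (95% interval 0.74 to 1.15, adjusted p = 9.88e-07 from limma). SLC3A2 was at 45.92, 49.09 and 46.46 FPKM with DMSO and at 49.15, 57.66 and 55.55 FPKM with SNS-032. Its rise was small, 1.15-fold (adjusted p = 0.00943 from limma), and did not pass with the libraries rescaled to a common total (adjusted p = 0.0683). SLC7A11 stood at 0.0308 to 0.0319 of the SLC3A2 level with DMSO and at 0.0641 to 0.0734 of it with SNS-032. The light chain RNA was far below the heavy chain RNA in both groups, and its log2 ratio to it was 1.16 higher with SNS-032 (p = 0.1, the smallest the exact two-sided permutation test can give here). SLC3A2 also serves other amino acid exchangers.

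**Figure D3:**
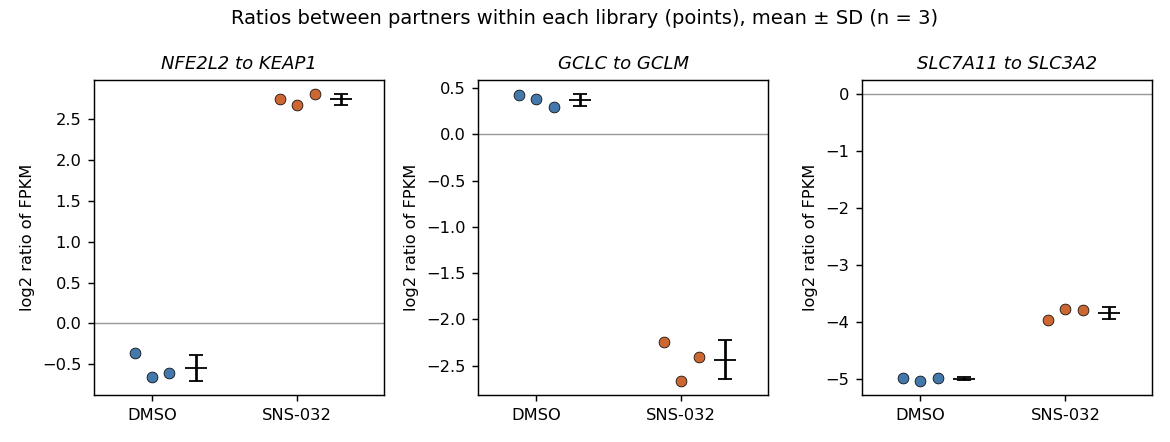
Log2 ratios of FPKM within each library (vertical axes) for NFE2L2 to KEAP1, GCLC to GCLM and SLC7A11 to SLC3A2, with the mean and SD of 3 libraries a group. The first 2 ratios cross 0, the line of equal levels, between DMSO (blue) and SNS-032 (orange), while the third stays below it at −4.99 and −3.84 on average.

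TXNRD1 encodes the cytosolic thioredoxin reductase, a selenoprotein that restores thioredoxin with NADPH. It lies on the plus strand of chromosome 12 of GRCh38 from 104215779 to 104350305. TXNRD1 was at 61.33, 58.98 and 59.18 FPKM with DMSO and at 31.69, 38.34 and 35.4 FPKM with SNS-032. Every SNS-032 library was lower than every DMSO library. The fall was 1.7-fold, with a log2 fold change of −0.75 (95% interval −0.89 to −0.62, adjusted p = 1.92e-07 from limma). EID3, whose gene lies within the TXNRD1 span on the same strand, was at or below 0.43 FPKM in every library. SRXN1 encodes sulfiredoxin, which repairs overoxidized peroxiredoxins, and lies on the minus strand of chromosome 20 of GRCh38 from 646615 to 653370. SRXN1 was at 1.34, 1.5 and 1.62 FPKM with DMSO and at 1.21, 1.66 and 1.9 FPKM with SNS-032. The groups overlapped, and the log2 fold change of 0.05 had a 95% interval of −0.18 to 0.28 (adjusted p = 0.648 from limma). With the libraries centred on a common median, SRXN1 was called higher (log2 fold change 0.35, adjusted p = 0.00701 from limma).

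The order of the levels changed with the treatment. With DMSO, TXNRD1 led, followed by KEAP1, NFE2L2, GCLC, GCLM and NQO1, with no overlap between neighbors. SRXN1 and SLC7A11 came next with overlapping libraries, and HMOX1 was last. With SNS-032, NFE2L2 led at 54.17 to 61.68 FPKM and TXNRD1 followed at 31.69 to 38.34 FPKM. GCLM and KEAP1 came next and overlapped, as did HMOX1 and NQO1 behind them. SLC7A11 followed at 3.15 to 4.23 FPKM, and SRXN1 and GCLC were last and overlapped. Among all 18216 genes of the table ranked by mean FPKM, KEAP1 went from percentile 88.4 to percentile 66.2 and GCLC from percentile 62.4 to percentile 40.2. NFE2L2 went from percentile 82.7 to percentile 93.5 and HMOX1 from percentile 17.0 to percentile 60.0.

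The SNS-032 libraries differed among themselves in a like way for most of the 9 genes. SNS-032 replicate 1 had the lowest SNS-032 value for 8 of the 9 genes, GCLC being the exception, while it was the lowest for 38.2% of all genes tested. SNS-032 replicate 2 had the highest value for 7 of the 9, against 34.9% of all genes tested. SNS-032 replicate 1 also had the largest summed FPKM of the 6 libraries. Without it, the same 8 genes were called in the same directions.

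Promoter sequences from RefSeq, 250 bases before to 50 bases after a start site on GRCh38.p14, were at hand for 7 of the 9 genes, some with 2 start sites, and HMOX1 and SLC7A11 were not matched. They were searched on both strands for TGACNNNGC, the core of the antioxidant response element. The letters occur in 13.3% of all 35116 RefSeq windows of this length and in 4 of the 10 windows of these genes, which belong to GCLM, KEAP1 and TXNRD1. The windows that hold a match are printed because their genes did not move together: GCLM was higher and KEAP1 and TXNRD1 were lower. GCLC is printed beside them as the partner subunit of GCLM. Each window runs 5′ to 3′ along its gene, with matches to TGACNNNGC in capitals, read on the opposite strand where they start with GC.
GCLM, chr1:93909381-93909680, minus strand: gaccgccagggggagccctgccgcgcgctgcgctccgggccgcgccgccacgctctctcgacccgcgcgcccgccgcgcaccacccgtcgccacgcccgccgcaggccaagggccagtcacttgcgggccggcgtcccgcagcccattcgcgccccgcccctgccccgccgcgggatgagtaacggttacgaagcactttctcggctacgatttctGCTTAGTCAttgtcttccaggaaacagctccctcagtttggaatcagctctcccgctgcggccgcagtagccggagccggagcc
GCLC, chr6:53545052-53545351, minus strand: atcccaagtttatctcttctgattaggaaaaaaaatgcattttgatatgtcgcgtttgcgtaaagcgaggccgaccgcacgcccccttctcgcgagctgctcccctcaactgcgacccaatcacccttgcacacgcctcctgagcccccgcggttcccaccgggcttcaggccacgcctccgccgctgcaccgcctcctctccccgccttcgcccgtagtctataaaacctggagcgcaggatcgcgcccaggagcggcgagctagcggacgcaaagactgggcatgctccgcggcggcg
KEAP1, chr19:10502722-10503021, minus strand: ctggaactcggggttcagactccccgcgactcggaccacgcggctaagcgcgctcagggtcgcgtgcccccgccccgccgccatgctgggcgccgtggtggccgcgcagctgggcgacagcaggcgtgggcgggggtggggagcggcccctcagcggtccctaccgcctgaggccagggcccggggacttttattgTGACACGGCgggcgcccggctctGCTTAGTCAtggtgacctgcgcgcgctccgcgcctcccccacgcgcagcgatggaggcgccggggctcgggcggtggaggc
TXNRD1, upstream start, chr12:104215529-104215828, plus strand: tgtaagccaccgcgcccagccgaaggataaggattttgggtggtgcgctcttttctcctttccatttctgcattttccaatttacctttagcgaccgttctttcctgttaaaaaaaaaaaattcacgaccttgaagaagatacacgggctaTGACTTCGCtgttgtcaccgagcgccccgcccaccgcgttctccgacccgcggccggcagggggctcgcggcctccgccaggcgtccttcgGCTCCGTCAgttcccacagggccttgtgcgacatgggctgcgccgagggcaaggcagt
TXNRD1, downstream start, chr12:104286782-104287081, plus strand: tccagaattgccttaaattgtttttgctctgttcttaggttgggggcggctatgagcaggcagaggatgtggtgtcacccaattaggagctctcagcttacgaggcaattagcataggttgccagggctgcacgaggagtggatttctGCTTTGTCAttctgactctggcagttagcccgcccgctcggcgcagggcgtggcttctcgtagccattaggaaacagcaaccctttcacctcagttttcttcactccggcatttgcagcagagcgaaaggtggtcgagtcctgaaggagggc
Counted from the start site as base 1, with no base 0, the match in GCLM runs from −34 to −26 and those in KEAP1 from −54 to −46 and from −31 to −23. In TXNRD1 they run from −99 to −91 and from −8 to 1 at the upstream start and from −102 to −94 at the downstream start. No match of the letters overlaps another. GCLM and KEAP1 hold the same 9 letters on the strand opposite to the gene, tgactaagc when read from that strand. A match is a stretch of letters and not a measured binding site, and a window without one shows only that the letters are not within it.

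The proteins that pair with NRF2, compete with it or mark it for breakdown were read from a list of 21 genes. Of these, 9 were higher, 10 were lower and 2 did not pass, with a median log2 fold change of 0.03, while 39.9% of all genes tested were higher and 49.3% lower with a median of −0.14. The small MAF genes, whose products are the partners of NRF2 on DNA, all rose. MAFK was at 6.86, 7 and 7.67 FPKM with DMSO and at 48.78, 52.97 and 47.44 FPKM with SNS-032, 6.93-fold higher. MAFG was at 20.23, 18.73 and 19.88 FPKM with DMSO and at 81.03, 87.81 and 86.11 FPKM with SNS-032, 4.33-fold higher. MAFF, the least abundant of them, rose 2.42-fold, from 1.61 ± 0.173 to 3.9 ± 0.186 FPKM (SD over 3 libraries a group). Their log2 fold changes were 2.63, 2.06 and 0.91 (adjusted p = 4.02e-12, 5.63e-12 and 3.03e-07 from limma).

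The BACH repressors moved apart. BACH1, which competes with NRF2 at HMOX1, was at 12.5, 12.36 and 11.26 FPKM with DMSO and at 13.7, 16.43 and 17.17 FPKM with SNS-032, 1.31-fold higher (adjusted p = 0.00113 from limma). BACH2, the form known from B cells, fell 2.24-fold, from 5.15 ± 0.418 to 2.29 ± 0.268 FPKM (SD over 3 libraries a group). The relatives of NRF2 also moved in both directions. NFE2L1, which encodes the regulator of proteasome genes NRF1, was at 30.26, 30.77 and 28.32 FPKM with DMSO and at 8.07, 9.92 and 9.5 FPKM with SNS-032, 3.25-fold lower. NFE2L3 rose from 0.46 ± 0.0265 to 6.14 ± 0.49 FPKM (SD over 3 libraries a group), 13.4-fold, and passed the filter through the SNS-032 libraries alone.

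The other parts of the ubiquitin ligase did not follow KEAP1 alike. CUL3, its scaffold, was at 31.55, 29.38 and 29.88 FPKM with DMSO and at 31.07, 32.34 and 31.29 FPKM with SNS-032. The groups overlapped for CUL3, with a log2 fold change of 0.06 (95% interval −0.05 to 0.17, adjusted p = 0.264 from limma). With the libraries centred on a common median, CUL3 was called higher by 0.36 on the log2 scale. RBX1, the RING subunit that binds the conjugating enzyme, fell 2.83-fold, from 50.9 ± 2.56 to 18.0 ± 1.9 FPKM (SD over 3 libraries a group). DPP3, a peptidase that can displace NRF2 from KEAP1, fell 2.89-fold, from 26.9 ± 1.71 to 9.32 ± 0.0709 FPKM (SD over 3 libraries a group). With the libraries centred on a common median, 11 of the 21 genes were higher and 7 lower.

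**Figure D4:**
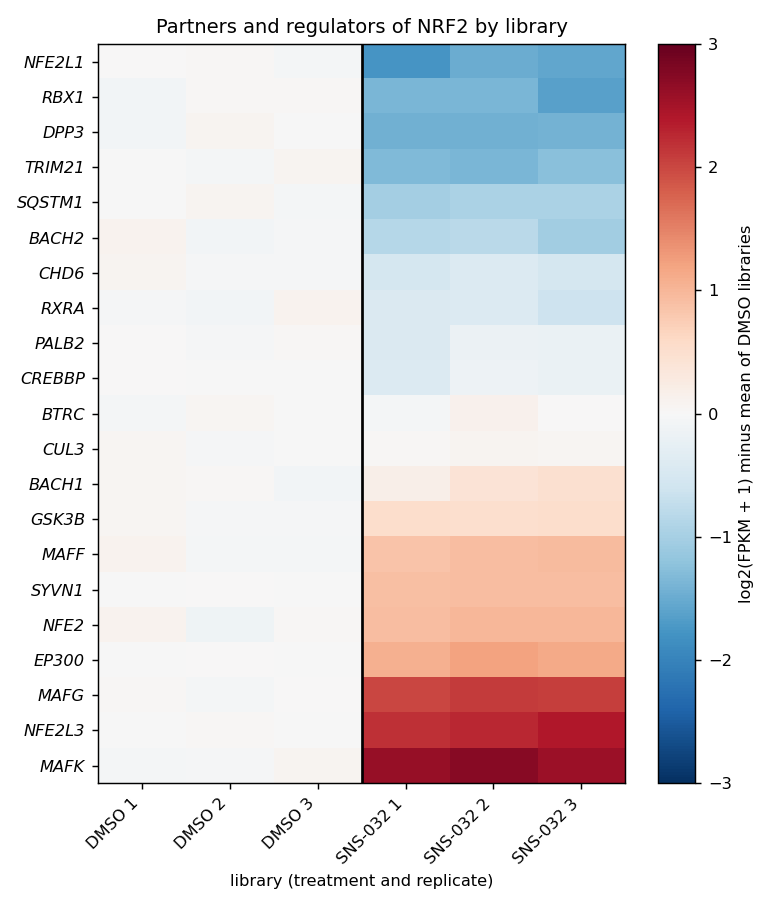
Log2(FPKM + 1) of the 21 partners and regulators of NRF2 (rows) in the 6 libraries (columns), relative to the mean of the DMSO libraries (red higher, blue lower). The 3 SNS-032 libraries have like colors in each row, from NFE2L1 with a log2 fold change of −1.6 at the top to MAFK with 2.63 at the bottom.

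Other textbook targets of NRF2 moved in both directions too. Of 26 tested genes, 9 were higher, 15 were lower and 2 did not pass, and their median was −0.69 on the log2 scale. The shares over all genes tested were 39.9% higher and 49.3% lower. With the libraries centred on a common median, 13 were lower and 11 higher, and the median was −0.39. The rises were led by EPHX1, a microsomal epoxide hydrolase, which was at 3.15, 2.97 and 2.39 FPKM with DMSO and at 20.73, 20.2 and 20.44 FPKM with SNS-032, 7.21-fold higher. TRIM16L rose 6.03-fold, from 4.11 ± 0.572 to 24.8 ± 2.38 FPKM (SD over 3 libraries a group), a value that is uncertain because it is a close copy of TRIM16. The falls were led by CBR1, a carbonyl reductase, which was at 6.99, 6.77 and 6.54 FPKM with DMSO and at 0.69, 0.47 and 0.48 FPKM with SNS-032, 12.4-fold lower. CBR1 passed the filter through the DMSO libraries alone, so it had to be lower. PGD, which makes NADPH in the pentose phosphate pathway, had a log2 fold change of −1.83. BLVRB, a biliverdin reductase, fell 3.77-fold, from 11.9 ± 1.67 to 3.15 ± 0.248 FPKM (SD over 3 libraries a group). Below the filter in both groups were 10 further genes of this list, among them OSGIN1 and ME1.

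Genes around glutathione were more often lower than higher. Of 18 tested genes, 6 rose and 12 fell, and the median of their log2 fold changes was −0.91. Over all genes tested, 39.9% were higher and 49.3% lower, with a median of −0.14. Among the rises, GGT1, GGT7 and CBS passed the filter through the SNS-032 libraries alone, so they had to be higher. By log2 fold change, the largest falls were in SLC1A4 and SLC1A5, transporters of neutral amino acids, and GLRX, which reduces glutathionylated proteins. SLC1A5, which carries glutamine, was at 117.63, 119.8 and 116.84 FPKM with DMSO and at 17.58, 20.58 and 19.85 FPKM with SNS-032, 6.11-fold lower. SLC1A4 and GLRX fell 7.41-fold and 6.16-fold, and by this plain fold GLRX2, the mitochondrial glutaredoxin, fell further, 7.45-fold. GSS, which completes glutathione, fell 1.77-fold, from 27.2 ± 0.894 to 15.4 ± 1.12 FPKM, and GSR, which recycles it, fell 2.21-fold, from 24.5 ± 0.587 to 11.1 ± 0.87 FPKM (SD over 3 libraries a group). GPX1, a selenium-containing glutathione peroxidase, was higher, at 185.1 ± 11.2 and 258.6 ± 23.4 FPKM (SD over 3 libraries a group).

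Among the genes of the thioredoxin system, 10 of 15 tested were lower and 4 were higher, and the median of their log2 fold changes was −0.80. The shares over all genes tested were 49.3% lower and 39.9% higher. TXN, the substrate of TXNRD1, was at 110.06, 118.22 and 113.03 FPKM with DMSO and at 62.67, 54.31 and 58.62 FPKM with SNS-032, 1.94-fold lower. PRDX1, a peroxiredoxin that SRXN1 repairs, fell 2.66-fold, from 1293.9 ± 4.52 to 485.8 ± 27 FPKM (SD over 3 libraries a group), and PRDX4 fell 3.15-fold. MSRB1 and MSRB2, methionine sulfoxide reductases, had log2 fold changes of −2.71 and −1.67. MSRB1, with a mean of 0.547 FPKM with SNS-032, passed the filter through the DMSO libraries alone, so it had to be lower. Higher were TXNIP, the inhibitor of thioredoxin, with a log2 fold change of 5.81, PRDX2 with 0.78 and SECISBP2, which is needed to insert selenocysteine, with 0.47. TXN and PRDX1 have processed copies elsewhere in the genome, so how their reads were shared out is uncertain.

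Genes of heme and iron handling around HMOX1 moved in both directions. Of 16 tested genes, 10 were lower, 4 were higher and 2 did not pass, with a median log2 fold change of −0.49. Over all genes tested, 49.3% were lower and 39.9% higher. With the libraries centred on a common median, 8 were lower and 6 higher, and the median was −0.19. ALAS1, the rate-limiting enzyme of heme synthesis outside red cells, was at 15.47, 16.29 and 16.79 FPKM with DMSO and at 3.22, 4.75 and 4.6 FPKM with SNS-032, 3.86-fold lower. HMOX2, the constitutive heme oxygenase, fell 1.31-fold, from 24.5 ± 0.397 to 18.8 ± 1.26 FPKM (SD over 3 libraries a group), a call lost with the libraries centred on a common median (adjusted p = 0.257 from limma). HMOX2 thus remained the more abundant heme oxygenase RNA, with its lowest SNS-032 library at 17.37 FPKM and the highest HMOX1 library at 6.95 FPKM. The ferritin genes, which store the iron that heme releases, were higher. FTL was at 744.15, 759.25 and 759.55 FPKM with DMSO and at 2212.99, 1937.19 and 1908.72 FPKM with SNS-032, 2.68-fold higher. FTH1 rose 1.61-fold, from 367.6 ± 8.22 to 593.1 ± 25.7 FPKM (SD over 3 libraries a group). Both ferritin genes have many processed copies, so their values carry that uncertainty. Of the myeloid markers given beside HMOX1, LYZ and CD14 were also higher. CSF1R was lower, and MPO and ELANE stayed at or below 0.17 FPKM. The part of myeloid cells in the ferritin values was not tested. IREB2, an iron sensor that holds back ferritin translation, rose 2.06-fold.

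Other antioxidant enzymes were mostly lower. Of 8 tested genes, 2 rose and 6 fell, and the median of their log2 fold changes was −0.93. NQO2 led the falls, as given above. SOD1, the cytosolic superoxide dismutase, was at 222.03, 215.66 and 221.88 FPKM with DMSO and at 73.81, 65.69 and 73.04 FPKM with SNS-032, 3.1-fold lower. TXNDC17, a thioredoxin-like protein, fell 2.78-fold. CYB5R3, a cytochrome b5 reductase, rose 2.09-fold, at 58.7 ± 1.66 FPKM with DMSO and 122.7 ± 6.91 FPKM after treatment (SD over 3 libraries a group). Some genes stand in more than 1 of the 6 lists, and 49.3% of all genes tested were lower, so these counts were read against that share and nothing particular to a list was tested. Genes that passed the filter through 1 group alone are in these counts and had to differ.

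**Figure D5:**
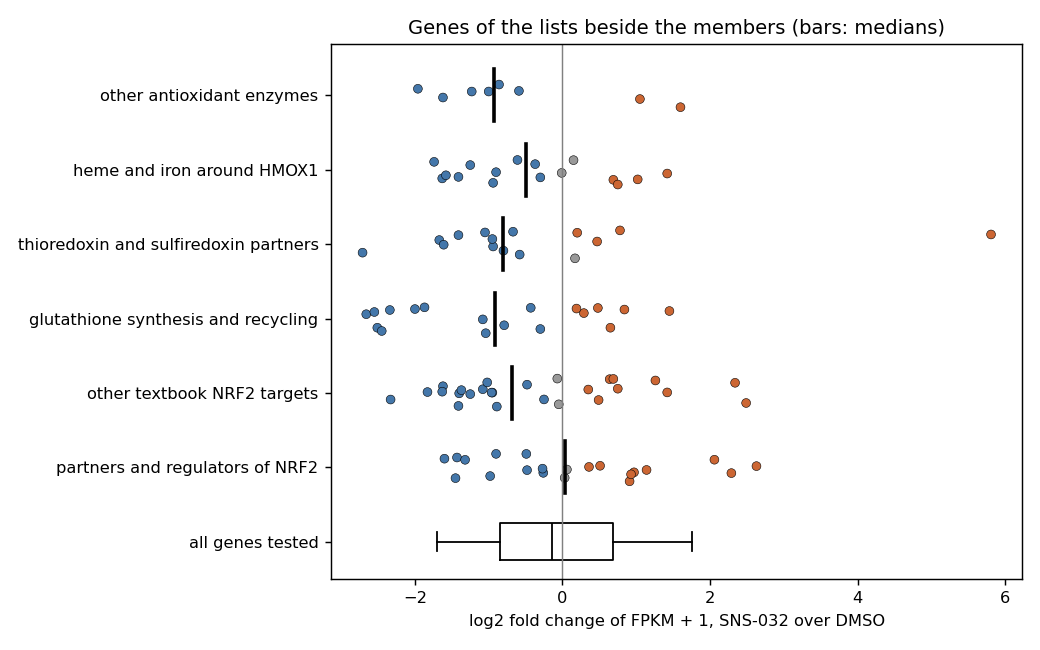
Log2 fold changes (horizontal axis, SNS-032 over DMSO) of the tested genes of 6 lists around the pathway (points, orange higher, blue lower, grey not called, black bars at the medians), with all genes tested as a box from the lower to the upper quartile and whiskers from the 5th to the 95th percentile. The medians run from −0.93 for other antioxidant enzymes to 0.03 for partners and regulators of NRF2, and TXNIP stands alone at 5.81.

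The genes whose values across the 6 libraries lay closest to those of NFE2L2 were sought among 9161 tested genes with at least 5 FPKM in either group. Likeness was the Euclidean distance between log2 values after each gene was set relative to its DMSO mean. The nearest were FBXL12, MTMR9, TGFBRAP1, CYRIA and GNAQ, at distances of 0.103 to 0.131. FBXL12 was at 19.25 to 20.91 FPKM with DMSO and at 41.01 to 44.76 FPKM with SNS-032, with a log2 fold change of 1.08 beside 1.10 for NFE2L2. Nearness over 6 libraries of 2 groups rests mostly on the difference between the groups.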

How the data were processed

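RNA of REH cells was isolated with TRIzol and made into libraries by BGISEQ protocols. Reads were filtered, mapped with Bowtie2 and HISAT (HISAT2 2.0.4 and GRCh38.p12 in the submitters' processing notes) and turned into gene levels with RSEM. The authors deposited FPKM of 18216 genes in 6 libraries, rounded to 2 decimals, with their own log2 fold changes, p-values and q-values, which were not used. Depth is unknown. One characteristic label spells the inhibitor SNA-032, while the titles give SNS-032, by which the libraries were grouped.

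FPKM were used as deposited. After 1 FPKM was added and log2 taken, genes averaging 1 FPKM or more with DMSO or with SNS-032 were tested with limma 3.58.1 in R 4.3.3 (trended prior variance, robust estimation, Benjamini-Hochberg adjustment over 12239 genes), which was tested on simulated data. Ratios were compared with exact permutation tests in Python 3.11.15. Entrez gene numbers matched a RefSeq symbol for 17934 genes. Coordinates are from GENCODE v29 and promoters from RefSeq.

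The 9 genes and the 6 lists, written from textbook knowledge, were chosen with earlier results of these data known. Of each list, up to 3 rises and 3 falls with at least 5 FPKM were named, and 16 genes by role: CUL3, MAFF, MAFG, MAFK, BACH1, BACH2, NFE2L1, SLC3A2, GSS, GSR, TXN, PRDX1, HMOX2, BLVRB, FTL and FTH1. Of these, 1 gene is not reported here. AGPS, EID3, OSGIN1, ME1, GLRX2, GGT1 and GGT7 fall outside this rule. So do the marker genes LYZ, CD14, CSF1R, MPO, ELANE, MME, CD3G, CD5, CD3D and CD3E and the genes of the other observations. All of them were named after their values were seen. Alternatives were an added 0.1 FPKM, no filter, a replicate block, rescaling to 1e+06, median centring and leaving out each library.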

Additional observations from a re-analysis of the deposited data

How the results depend on the processing

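All 8 called genes among the 9 kept their direction and their call at an adjusted p below 0.05 under each of the 11 alternatives. In each, 5 were higher and 3 lower, except that SRXN1 was also called higher with median centring (log2 fold change 0.35). Nothing is read from the call of HMOX1, which passed the filter through the SNS-032 libraries alone. SRXN1 turned to −0.03 without SNS-032 replicate 3 and was not called there. Log2 fold changes ranged from 1.06 to 1.4 for NFE2L2, −2.14 to −1.73 for KEAP1, 2.78 to 5.68 for HMOX1, 0.75 to 1.12 for NQO1, 0.31 to 0.65 for GCLM, −2.34 to −1.59 for GCLC, −0.82 to −0.46 for TXNRD1 and 0.88 to 1.3 for SLC7A11. Median centring moved the middle log2 fold change over all tested genes by 0.3, from −0.14 to 0.16, and the share of calls that were higher from 44.7% to 56.5%. The list medians became 0.33 for partners and regulators, −0.39 for other textbook targets, −0.62 for glutathione, −0.5 for thioredoxin, −0.19 for heme and iron and −0.63 for other antioxidant enzymes.

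At the stricter thresholds, 431 genes were higher and 298 lower. These became 1227 and 532 with an added 0.1 FPKM, 672 and 136 with median centring, and 670 higher after rescaling to 1e+06. KEAP1 no longer met the stricter thresholds with median centring or without SNS-032 replicate 1. Without a filter, 14 in place of 9 other textbook NRF2 targets were higher, because more genes were tested. Of the named list genes, CUL3 became called, HMOX2 lost its call with median centring and SLC3A2 lost its call after rescaling.

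The replicate number as a block gave 4862 genes higher and 5989 lower, against 4882 and 6032 without it, and changed no call among the 9 genes. Deviations from the group means correlated at −0.119, 0.014 and −0.016 for replicates 1, 2 and 3. For libraries of unlike number, the correlations ran from −0.109 to 0.124. These values do not decide whether libraries of the same number were paired. The block left the log2 ratios at 3.28, −2.81 and 1.16, with p = 0.25 from an exact sign-flip test, the smallest it can give. Leaving out a library moved them within 3.22 to 3.36, −2.91 to −2.69 and 1.12 to 1.22.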

Other observations

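Some genes around the pathway were below 1 FPKM with DMSO and above it with SNS-032. They entered the test through the SNS-032 libraries alone, so they had to differ, and their levels are given as a description. AIFM2, which encodes the ferroptosis suppressor FSP1, was at 0.37, 0.42 and 0.54 FPKM with DMSO and at 3.38, 3.21 and 3.5 FPKM with SNS-032. CBS, the first enzyme of the transsulfuration path that makes cysteine from homocysteine, was at 0.02 to 0.07 FPKM with DMSO and at 1.29 to 2.58 FPKM with SNS-032, where replicate 1 was the highest. GSTM3, a glutathione transferase, was at 0.3 to 0.38 FPKM with DMSO and at 2.04 to 2.43 FPKM with SNS-032. NFE2, the NRF2 relative of blood cells best known from platelets, was at 0.28 to 0.49 FPKM with DMSO and at 1.63 to 1.78 FPKM with SNS-032. No library of one group overlapped one of the other for these 4 genes, as for 89.7% of all genes tested, and nothing is read from this.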
